A study of Mus musculus with 22 samples.

Results

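Midbrain and hindbrain patterning factors are transcription factors that divide the neural tube behind the forebrain into its first territories. Members were the 7 genes En1, En2, Dmbx1, Gbx2, Pax2, Pax5 and Egr2, taken by symbol from the 37680 gene IDs of the expression file, and each matched a single ID. The genes were set by name and not by a threshold on their values. All 7 are annotated as protein-coding on NCBIM37. En1 lies on chr 1 from 122498995 to 122505873 (plus strand) and Gbx2 on the same chromosome from 91824537 to 91829865 (minus strand). En2 lies on chr 5 from 28492236 to 28500152 (plus strand) and Pax2 on chr 19 from 44830539 to 44912758 (plus strand). Dmbx1 and Pax5 are both on the minus strand of chr 4, from 115587149 to 115612531 and from 44544017 to 44724318. Egr2 lies on chr 10 from 66998223 to 67004936 (plus strand).

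The samples were 22 pools of whole C57BL/6 mouse embryos from a line with an inducible Oct4 transgene (ROSA26tg/+; Oct4tg/+) or Nanog transgene (ROSA26tg/+; Nanogtg/+), with or without doxycycline. Induced and control pools of a line carried the same transgenes. The 8 groups were Oct4 E9.5 induced (3 pools), Oct4 E9.5 control (3), Nanog E9.5 induced (3), Nanog E9.5 control (2), Oct4 E7.5 induced (3), Oct4 E7.5 control (3), Nanog E7.5 induced (3) and Nanog E7.5 control (2). A pool held 3 embryos at E9.5 and 8 to 12 at E7.5. Mothers of the induced E9.5 pools drank doxycycline from E6.5 on, while mothers of the induced E7.5 pools had an injection of it at E4.5 and then drank it, so stage and schedule of induction cannot be told apart. No group received doxycycline without a transgene, and the labels do not name the promoter that drives either transgene or the cells in which it is active.

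The midbrain and hindbrain meet at the isthmus, a constriction that forms where the anterior domain of the homeobox gene Otx2 abuts the posterior domain of Gbx2. Cells at this border secrete Wnt1 and Fgf8, and the paired-box genes Pax2 and Pax5 and the engrailed homeobox genes En1 and En2 are switched on around it and are needed for the midbrain and cerebellum. Dmbx1, a paired-like homeobox gene, marks the presumptive midbrain and neighbouring forebrain. Behind the isthmus the hindbrain is cut into rhombomeres, and Egr2 (Krox20), a zinc-finger gene, is the segment gene of alternate rhombomeres and later of myelinating Schwann cells. Before the neural tube forms, Gbx2 is active in the posterior of the gastrulating embryo.

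Libraries held 4.72 to 42.3 M counts, and 3 counts, the most that an observed 0 allows, corresponded to 0.0709 to 0.636 CPM (counts divided by the library total in M). Pou5f1, the gene of Oct4, averaged 266 ± 14.5 CPM in Oct4 E9.5 induced pools and 0.87 ± 0.436 CPM in their controls (SD, n = 3 each), and 553 ± 67.4 CPM in Oct4 E7.5 induced pools and 218 ± 21.3 CPM in their controls (n = 3 each). Nanog averaged 350 ± 3.32 CPM in Nanog E9.5 induced pools (n = 3) and 2.2 ± 0.207 CPM in their controls (n = 2), and 91.6 ± 33.3 CPM in Nanog E7.5 induced pools (n = 3) and 20 ± 3.94 CPM in their controls (n = 2). Pou5f1 also stood at 525 ± 60.9 CPM in Nanog E7.5 induced pools and 234 ± 15.7 CPM in their controls. In Nanog E9.5 induced pools it averaged 1.3 ± 0.66 CPM, beside 0.987 ± 0.0495 CPM in controls. Nanog averaged 27.7 ± 5.44 CPM in Oct4 E7.5 induced pools and 18.4 ± 1.78 CPM in their controls. The 3 Nanog E7.5 induced libraries stood apart from the other libraries of their stage. Gene models shorter than 80 nucleotides summed to 0.575 to 1.13 CPM in them, against 31.3 to 36.8 CPM in Nanog E7.5 controls, 29 to 51.9 CPM in all 6 Oct4 E7.5 libraries and 0.634 to 2.02 CPM in all E9.5 libraries. The protocols name 2 kinds of sequencer without saying which read each library, so library preparation and induction cannot be told apart in Nanog E7.5, nor preparation and stage where E9.5 is compared with E7.5.

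Among the control pools, every member but Gbx2 was higher in E9.5 controls than in E7.5 controls, and Gbx2 was lower. All 7 were called in both lines, with 6 higher and 1 lower (edgeR's quasi-likelihood test, Benjamini-Hochberg adjusted p under 0.05 over all genes tested). Most genes were called in these comparisons: 73.5% in the Oct4 line (36.5% higher and 37.1% lower) and 63.8% in the Nanog line (31.8% higher and 32.0% lower). The members' median log2 fold change was 1.91 in the Oct4 line and 2.45 in the Nanog line, while all genes tested had medians of -0.02 and 0.01. Scaling by library totals alone moved the median of all genes in the Oct4 line to 0.18 and the share of calls that were higher to 61.5%, against 49.6% with TMM scaling, and left the directions of the members as they were.

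En2, which shapes the cerebellum and the posterior midbrain, gave 21.4, 22.8 and 14.8 CPM in Oct4 E9.5 controls and 0.748, 1.03 and 0.567 CPM in Oct4 E7.5 controls. No E9.5 pool was near any E7.5 pool. The difference on the log2 scale was 4.45 ± 0.24 (SE, adjusted p = 6.89e-08) in the Oct4 line and 4.43 ± 0.30 (adjusted p = 3.27e-08) in the Nanog line. Pax5, a partner of Pax2 at the isthmus and later a B-cell factor, gave 4.35, 5.71 and 3.76 CPM in Oct4 E9.5 controls and 0.034, 0.0505 and 0.0473 CPM (1 or 2 counts) in Oct4 E7.5 controls, a log2 fold change of 6.35 ± 0.37 (adjusted p = 6.4e-08). In the Nanog line it had 2.28 and 2.75 CPM in E9.5 controls and no count in either E7.5 control, so it was at least 12.7-fold higher at E9.5 when 3 counts over the E7.5 group are taken as the floor. Pax5 did not exceed 2 counts in any of the 11 E7.5 pools, induced or control.

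Gbx2 ran the other way. It gave 12.7, 16 and 14.2 CPM in Oct4 E9.5 controls and 64.8, 40 and 60 CPM in Oct4 E7.5 controls (log2 fold change -2.12 ± 0.20, adjusted p = 6.7e-05), and 10.1 and 10.2 CPM in Nanog E9.5 controls against 39.5 and 46.9 CPM in Nanog E7.5 controls (-2.16 ± 0.12, adjusted p = 4.71e-09). Every E9.5 control lay below every E7.5 control. En1, which the midbrain, limb ectoderm and somites share, was higher at E9.5 by 2.91 ± 0.25 in the Oct4 line (adjusted p = 1.37e-06), and Dmbx1 by 1.46 ± 0.25 (adjusted p = 0.000501). Pax2 and Egr2 were higher by 1.01 ± 0.26 (adjusted p = 0.00414) and 1.91 ± 0.53 (adjusted p = 0.00672) in the Oct4 line. Their calls in the Nanog line rested on single pools. Pax2 there (0.77 ± 0.29, adjusted p = 0.0319) was not called without E7.5 control 3 (0.192), E9.5 control 2 (0.176) or E9.5 control 3 (0.0801), and Egr2 (2.45 ± 0.77, adjusted p = 0.0132) was not called without E7.5 control 2 (0.108). DESeq2 called neither (0.182 for Pax2 and 0.0988 for Egr2).

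Set per kilobase of exon so that genes can be compared, En2 had the highest level of the 7 in Oct4 E9.5 controls with 3.94 CPM per kb, followed by Gbx2 with 3.37, Dmbx1 with 1.9, En1 with 1.56, Pax5 with 1.35, Pax2 with 1.03 and Egr2 with 0.303. In Oct4 E7.5 controls Gbx2 stood far above the rest with 13 CPM per kb, and Dmbx1 came next with 0.611. In whole embryos such as these a lower level cannot be assigned to fewer cells of a type or to less RNA per cell.

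**Figure D1:**
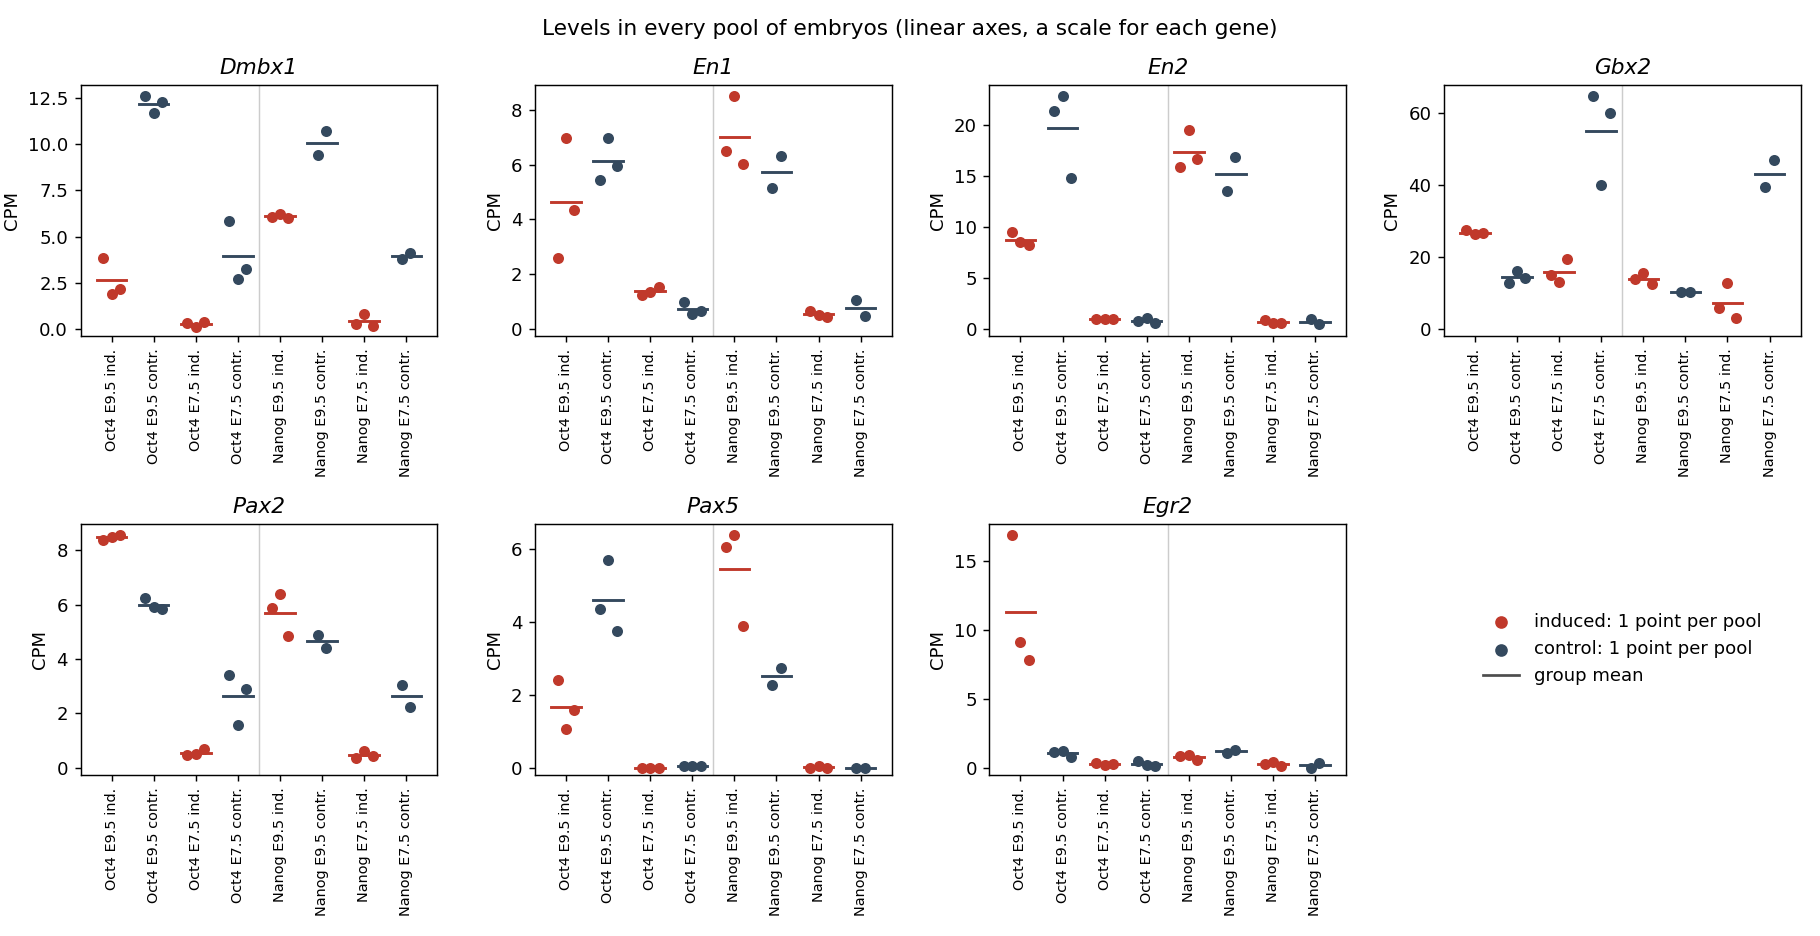
Levels of the 7 genes in CPM (linear axes, a separate scale for each gene) in all 22 pools. Each point is a pool, horizontal lines are group means, induced pools are red and control pools dark; E9.5 groups stand left of E7.5 groups within each line. Egr2 reaches 7.85 to 16.9 CPM in Oct4 E9.5 induced pools and stays at or below 1.28 CPM in every other pool, and Gbx2 is highest in the E7.5 controls.

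At E9.5, Oct4 induction went with higher levels of the posterior members Egr2 and Gbx2 and with lower levels of Dmbx1, En2 and Pax5. All 7 members were tested and 5 were called, 2 higher and 3 lower, in a comparison in which 9.29% of all genes tested were called (4.69% higher and 4.61% lower). The members had a median of -0.53 on the log2 scale, and all genes tested one of 0.00.

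Egr2 had the largest change of the 7. It gave 16.9, 9.12 and 7.85 CPM in Oct4 E9.5 induced pools and 1.12, 1.2 and 0.777 CPM in their controls. The lowest induced pool was thus several times above the highest control, and the induced pools differed among themselves by more than the controls did (coefficient of variation 43.5% in induced pools and 21.7% in controls). Egr2 rose by 3.42 ± 0.36 on the log2 scale, or 10.7-fold, with an adjusted p of 0.000197, and it was called in each of the 6 fits that left out 1 pool. Counts behind these levels were 176, 43 and 65 in the induced pools and 10, 17 and 6 in the controls.

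POU factors such as Oct4 bind an 8-letter DNA word, the octamer ATGCAAAT, and Egr2 is shown here because it was the only member with this word in a RefSeq promoter window (250 bases before to 50 after a gene start, GRCm38.p6). The word and its reverse complement ATTTGCAT were searched in 12 windows of the 6 members that have one; En2 has none. The octamer stood in 3 overlapping windows of Egr2, out of 5, and in none of the windows of En1, Dmbx1, Gbx2, Pax2 and Pax5. Over all 32851 windows in that set, 1.74% hold it. The 30 bases around it, with the octamer in capitals, lie at chr10:67537731-67537760 on the plus strand of GRCm38.p6. They have 1 exact match in NCBIM37, at chr10:67000479-67000508, within the annotated span of Egr2. The end of the octamer there lies 120 bases before the start of the Egr2 transcript Egr2-001.
Egr2 octamer, plus strand: gccaagcccgtATGCAAATtggccatgtga
The match describes the letters of this window, and binding of Oct4 was not measured.

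Gbx2, the posterior partner of Otx2 at the isthmus, gave 27.4, 26.3 and 26.7 CPM in Oct4 E9.5 induced pools and 12.7, 16 and 14.2 CPM in their controls. The groups did not overlap, and the induced pools were almost identical. Gbx2 rose by 0.88 ± 0.10 on the log2 scale (adjusted p = 1.37e-05), and the call held in all 6 fits without 1 pool, while 1 model over all 22 libraries gave the same 0.88 with an adjusted p of 0.203. An antisense gene that overlaps exons of Gbx2, D130058E05Rik, stayed at or below 2.53 CPM in these 6 pools; whether the libraries keep strand is not stated, so its reads cannot be separated from those of Gbx2. Otx2 itself did not pass, with 31.8 ± 10.7 CPM in induced pools and 40.8 ± 2.6 CPM in controls (SD, n = 3 each; log2 fold change -0.34 ± 0.27, adjusted p = 0.548).

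Pax2, the earliest paired-box gene of the midbrain-hindbrain territory and also a gene of the kidney, eye and ear, did not pass the threshold. Its levels were 8.37, 8.48 and 8.57 CPM in Oct4 E9.5 induced pools and 6.24, 5.93 and 5.83 CPM in their controls. Every induced pool was above every control, with a log2 fold change of 0.49 ± 0.16 and an adjusted p of 0.0571. The summed level of 7 intermediate mesoderm and nephric duct genes, another site of Pax2, was 53.8 to 66.3 CPM in induced pools and 52.3 to 61.1 CPM in controls, and that of 6 ear and eye genes 75.2 to 85.2 CPM in induced pools and 86.1 to 89.7 CPM in controls; their part in the level of Pax2 was not tested.

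Dmbx1 fell most. It gave 3.85, 1.91 and 2.17 CPM in Oct4 E9.5 induced pools and 12.6, 11.7 and 12.3 CPM in their controls, with no overlap. This is a log2 fold change of -2.12 ± 0.20 (adjusted p = 1.87e-06), and the call held in all 6 fits without 1 pool. En2 gave 9.52, 8.48 and 8.21 CPM in induced pools and 21.4, 22.8 and 14.8 CPM in controls. Here too the groups were apart, although control 3 lay well below the other controls. En2 changed by -1.19 ± 0.16 on the log2 scale (adjusted p = 0.000109), called in all 6 fits without 1 pool.

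Pax5 gave 2.4, 1.06 and 1.57 CPM in Oct4 E9.5 induced pools and 4.35, 5.71 and 3.76 CPM in their controls, from 5 to 81 counts a pool. All induced pools were below all controls. Pax5 changed by -1.39 ± 0.28 on the log2 scale (adjusted p = 0.00385), and it was not called without control 2 (-1.18, adjusted p = 0.0537). En1 is the member for which the pools of the groups overlapped, with 2.6, 7 and 4.35 CPM in induced pools and 5.46, 6.98 and 5.96 CPM in controls. Its log2 fold change of -0.53 ± 0.28 did not pass (adjusted p = 0.269), and its interval of -1.08 to 0.01 (95%) leaves room for a decrease close to that of En2. Limb ectoderm and dermomyotome, other sites of En1, had a summed level over 7 genes of 202 to 220 CPM in induced pools and 174 to 180 CPM in controls; their part in the level of En1 was not tested.

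Genes that work around the isthmus changed in both directions with Oct4 at E9.5. Of 23 isthmic organizer signals and targets, all tested, 7 were higher and 3 lower (median on the log2 scale 0.14, and 0.00 for all genes tested). The lower ones were Otx1 (6.91 ± 1.32 CPM in induced pools and 19.1 ± 1.11 CPM in controls, log2 fold change -1.44 ± 0.14, adjusted p = 2.23e-06), the FGF-signalling gene Cnpy1 (-1.19 ± 0.12, adjusted p = 4.61e-06) and the dorsal midbrain gene Pax7 (-0.51 ± 0.12, adjusted p = 0.00914; 0.0628 without control 2). Cnpy1 is the neighbour of En2 on chr 5, with a gap of 27206 bases between them, and both fell by 1.19 on the log2 scale. The higher ones were led by Hes3, a repressor that keeps isthmic cells undifferentiated, with 30.3 ± 4.41 CPM in induced pools and 7.65 ± 1.72 CPM in controls (2.0 ± 0.14 on the log2 scale, adjusted p = 3.92e-07). Irx3 (0.67 ± 0.07, adjusted p = 3.16e-06), Irx2 (0.58 ± 0.11, adjusted p = 0.0032) and the FGF antagonist Spry2 (0.39 ± 0.08, adjusted p = 0.004; 0.0509 without induced pool 5) also rose. The organizer signals did not pass: Wnt1 averaged 8.23 ± 0.906 CPM in induced pools and 7.57 ± 0.294 CPM in controls (adjusted p = 0.651), and Fgf8 9.19 ± 1.15 CPM in induced pools and 6.88 ± 0.0926 CPM in controls (adjusted p = 0.128).

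Of 22 hindbrain segmentation genes 20 were tested, and 10 were higher and 2 lower (median log2 fold change 0.28). The others passed in neither direction, and 6 of the higher calls and 0 of the lower ones held in every fit without 1 pool. The retinoid-responsive gene Hoxb1 rose by 0.99 ± 0.11 (adjusted p = 4.8e-05). Epha4, a receptor of rhombomere borders and a known target of Egr2, gave 95.9 ± 1.62 CPM in induced pools and 66.5 ± 0.572 CPM in controls (0.52 ± 0.05, adjusted p = 2.25e-06), and Hoxa2, another known target, rose by 0.55 ± 0.09 (adjusted p = 0.000674). Hoxb2, also a known target, did not pass (0.25 ± 0.13, adjusted p = 0.245), nor did the Egr corepressors Nab1 (0.08 ± 0.11, adjusted p = 0.71) and Nab2 (0.22 ± 0.12, adjusted p = 0.302). Fst, which marks rhombomeres as well as somites, rose by 1.07 ± 0.12 (adjusted p = 0.000482), and Fgf3, a hindbrain signal, by 1.94 ± 0.32 (adjusted p = 0.00784), which was not called without control 2 (0.0625). The lower ones were the retinoic acid hydroxylase Cyp26b1 (-0.34 ± 0.07, adjusted p = 0.00726; 0.0652 without induced pool 3) and the ephrin receptor Epha7 (-0.23 ± 0.07, adjusted p = 0.0412; 0.195 without control 2).

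Of 10 forebrain genes, all tested, 6 fell and 1 rose, and the median on the log2 scale was -0.51. Of the 6 lower genes, 2 were called in every fit without 1 pool, Six6 of the eye field (-2.23 ± 0.26, adjusted p = 1.94e-05) among them. Dlx2 (-0.48 ± 0.12, adjusted p = 0.0139), Lhx2 (-0.61 ± 0.13, 0.0182), Emx2 (-0.54 ± 0.14, 0.0207) and Six3 (-0.76 ± 0.21, 0.0371) were not, with adjusted p of 0.0779 without induced pool 3 for Dlx2, 0.0823 without induced pool 4 for Lhx2, 0.0716 without control 1 for Emx2 and 0.188 without control 2 for Six3. Hesx1 rose (1.73 ± 0.40, adjusted p = 0.00927; 0.0714 without induced pool 5), at 1.76 ± 0.263 CPM in induced pools and 0.515 ± 0.162 CPM in controls.

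Markers of neural cells moved beside these results. The summed level of 10 neural progenitor genes was 762 to 773 CPM in Oct4 E9.5 induced pools and 920 to 998 CPM in their controls, and 5 were lower and 1 higher, among them Zic1 (-0.99 ± 0.07, adjusted p = 6.6e-08) and Hes5 (-0.94 ± 0.10, adjusted p = 3.68e-06). The summed level of 7 neuron genes was 140 to 147 CPM in induced pools and 201 to 262 CPM in controls, and 4 were lower, among them Elavl4 (-1.08 ± 0.10, adjusted p = 1.86e-06). Among the neural crest genes, a later site of Egr2, Sox10 rose (26.2 ± 3.01 CPM in induced pools and 17.8 ± 1.31 CPM in controls, 0.52 ± 0.10, adjusted p = 0.00264). Primitive blood genes (5) summed to 6231 to 7595 CPM in induced pools and 4431 to 5695 CPM in controls. Of the 5, Klf1 was called higher (0.65 ± 0.16, adjusted p = 0.0114; 0.0625 without induced pool 3), and DESeq2 called 4. The part of these cells in the levels of the members was not tested.

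**Figure D2:**
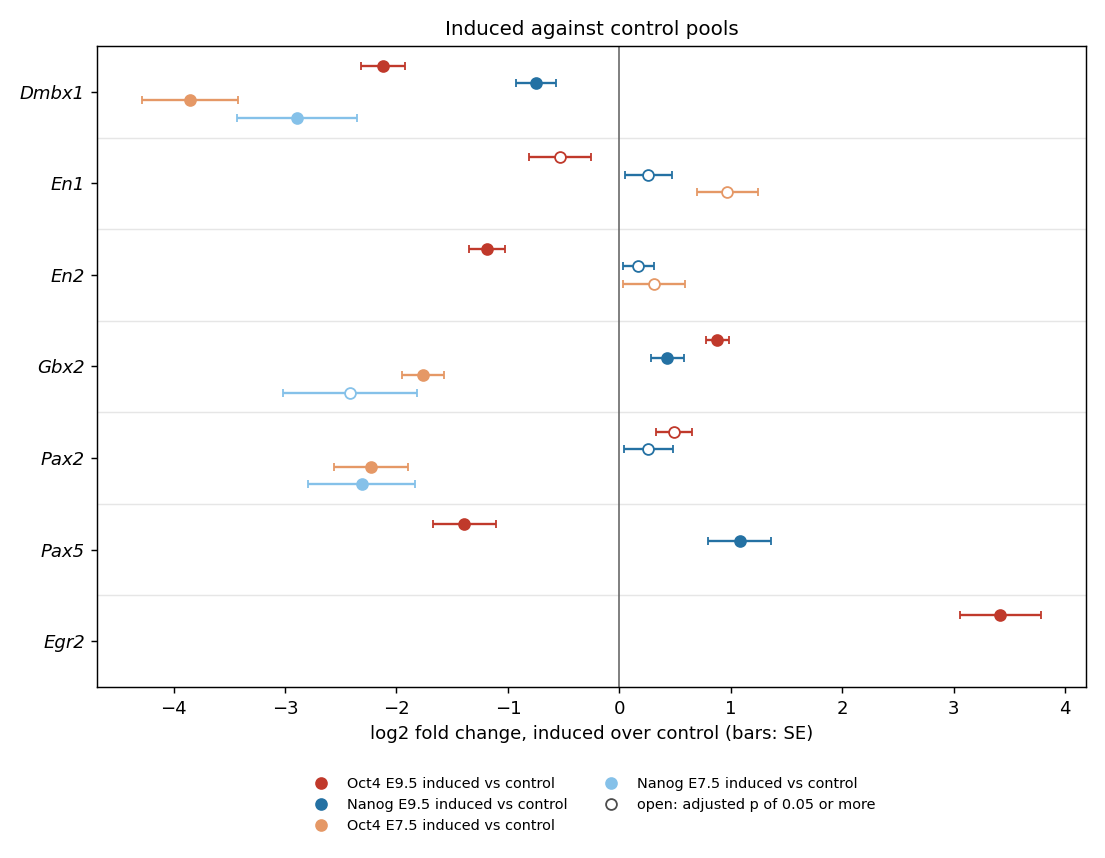
Log2 fold changes of the 7 genes, induced over control, in the 4 inductions (bars are standard errors). Filled points were called at an adjusted p under 0.05 and open ones were not; genes too low to be tested have no point. Dmbx1 lies left of 0 in all 4 inductions, and Gbx2 lies right of 0 at E9.5 and left of it at E7.5.

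With Nanog at E9.5, Pax5 and Gbx2 were higher and Dmbx1 was lower. Of 6 members tested, 2 were higher and 1 lower, in a comparison in which 28.4% of all genes tested were called (15.4% higher and 13.0% lower). The median of the 6 on the log2 scale was 0.26, beside 0.00 for all genes tested. Control libraries here held 15.7 and 15.8 M counts and induced ones 4.77 to 5.63 M, and the summed level of 5 primitive blood genes was 1332 to 1818 CPM in induced pools and 4656 to 6183 CPM in controls; the part of either in the results was not tested.

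Pax5 gave 6.07, 6.39 and 3.89 CPM in Nanog E9.5 induced pools and 2.28 and 2.75 CPM in their controls. The groups did not overlap, with induced pool 3 nearest to the controls. Pax5 rose by 1.08 ± 0.28 on the log2 scale (adjusted p = 0.00869), and it was not called without control 2 (adjusted p = 0.093). Dmbx1 gave 6.07, 6.21 and 6.02 CPM in induced pools and 9.45 and 10.7 CPM in controls, again without overlap. Its log2 fold change was -0.75 ± 0.18 (adjusted p = 0.00548), not called without control 3 (adjusted p = 0.0626) or in 1 model over all libraries (0.13).

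Gbx2 gave 13.8, 15.4 and 12.6 CPM in Nanog E9.5 induced pools and 10.1 and 10.2 CPM in their controls. All induced pools were above both controls, but the call was weak, and with no filter on low counts it was not made (adjusted p = 0.0624). The change of Gbx2 was 0.43 ± 0.15 on the log2 scale (adjusted p = 0.042), and it was not called without control 2 (0.18), control 3 (0.142), induced pool 1 (0.072) or induced pool 2 (0.151), by DESeq2 (0.162) or in 1 model over all libraries (0.509).

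The remaining members overlapped or were too low. En2 gave 15.9, 19.5 and 16.7 CPM in Nanog E9.5 induced pools and 13.5 and 16.8 CPM in their controls (log2 fold change 0.17 ± 0.14, 95% interval -0.11 to 0.45, adjusted p = 0.406). En1 gave 6.49, 8.52 and 6.02 CPM in induced pools and 5.14 and 6.32 CPM in controls (0.26 ± 0.21, adjusted p = 0.376), and Pax2 5.87, 6.39 and 4.86 CPM in induced pools and 4.88 and 4.41 CPM in controls (0.26 ± 0.22, adjusted p = 0.398). For each of the 3 the intervals include 0. Egr2 was not tested because of its low counts, at 0.838, 0.888 and 0.583 CPM (3 to 5 counts) in induced pools and 1.08 and 1.28 CPM in controls. No induced pool reached the lower control.

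Around the members, 5 of 23 isthmic genes were higher and 2 lower with Nanog at E9.5 (median on the log2 scale 0.05). In this comparison 28.4% of all genes tested were called (15.4% higher and 13.0% lower), so isthmic genes were called about as often as all genes. The counts of the other lists here stand beside the same share. Irx3 (42.2 ± 4.3 CPM in induced pools and 22.1 ± 0.456 CPM in controls, 0.91 ± 0.10, adjusted p = 2.28e-05) and the Wnt target Sp5 (8.7 ± 1.43 CPM in induced pools and 3.79 ± 0.208 CPM in controls, adjusted p = 0.00105) held in every fit without 1 pool. Hes3 (0.75 ± 0.19, adjusted p = 0.00719), the organizer signals Fgf8 (0.61 ± 0.21, 0.0388) and Wnt1 (0.67 ± 0.24, 0.0471), and the lower Otx2 (-0.40 ± 0.10, 0.00925) and Pax3 (-0.29 ± 0.10, 0.0347) did not. Without control 2 the adjusted p was 0.258 for Fgf8, 0.396 for Wnt1 and 0.183 for Pax3, and without control 3 it was 0.0645 for Hes3 and 0.163 for Otx2. Of 20 hindbrain genes tested, 5 were higher and 3 lower (median 0.14), led by Meis3 (0.58 ± 0.09, adjusted p = 0.00047). Epha4 did not pass, with 68.7 ± 1.8 CPM in induced pools and 75.5 ± 2.96 CPM in controls (-0.17 ± 0.07, adjusted p = 0.0847), nor did Cnpy1, with 23.1 ± 5.55 CPM in induced pools and 23.8 ± 6.59 CPM in controls (-0.08 ± 0.26, adjusted p = 0.84). Of 9 forebrain genes tested, 1 was higher and 3 lower, among them Pax6 (-0.72 ± 0.09, adjusted p = 3.7e-05). The neural crest gene Sox10 rose, at 25 ± 2.94 CPM in induced pools and 12.2 ± 2.85 CPM in controls (1.0 ± 0.15 on the log2 scale, adjusted p = 0.000286), in pools in which Egr2 did not exceed 0.888 CPM. Neural progenitor genes (10) summed to 854 to 896 CPM in Nanog E9.5 induced pools and 898 to 985 CPM in their controls. Of these genes 3 were lower, Sox2 (-0.47 ± 0.08, adjusted p = 0.001), Nes (-0.25 ± 0.06, 0.00868; 0.133 without control 3) and Fabp7 (-0.89 ± 0.20, 0.00978; 0.109 without induced pool 2), and Sox3 was higher (0.50 ± 0.13, 0.0104; 0.178 without control 2). Neuron genes (7) summed to 195 to 221 CPM in induced pools and 193 to 271 CPM in controls. Of these 3 were lower, Stmn2 (-0.83 ± 0.17, adjusted p = 0.00221), Dcx (-0.51 ± 0.13, 0.0069; 0.145 without control 3) and Elavl4 (-0.69 ± 0.19, 0.0284; 0.155 without induced pool 2). The part of these cells in the levels of the members was not tested.

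**Figure D3:**
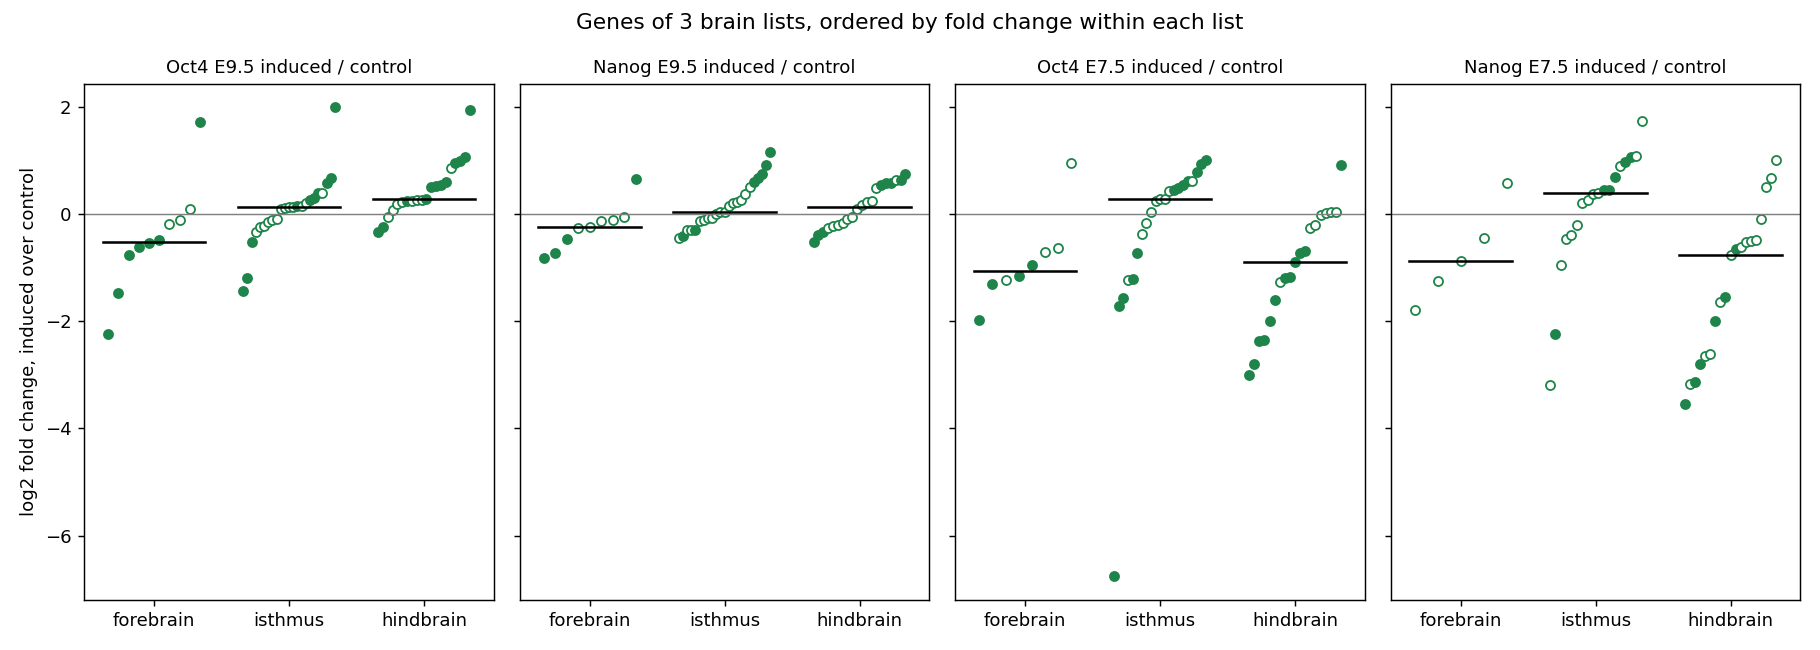
Log2 fold changes, induced over control, of the tested genes of 3 lists (forebrain, isthmus and hindbrain), ordered within each list, in the 4 inductions. Filled points were called at an adjusted p under 0.05, and black lines are list medians. With Oct4 at E9.5 the forebrain median is -0.51 and the hindbrain median 0.28, whereas the hindbrain median is -0.89 with Oct4 at E7.5 and -0.77 with Nanog at E7.5.

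At E7.5, Dmbx1 and Pax2 were lower with either transgene, and Gbx2 was lower with Oct4. Dmbx1 was thus called lower in all 4 inductions, each with controls of its own. With Oct4, 5 members were tested and 3 were called, all lower, where 6.17% of all genes tested were called (3.91% lower). The median of the 5 on the log2 scale was -1.76, beside 0.02 for all genes tested.

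Dmbx1 gave 0.324, 0.113 and 0.362 CPM (4 to 13 counts) in Oct4 E7.5 induced pools and 5.85, 2.7 and 3.24 CPM (107 to 172 counts) in their controls. The highest induced pool was far below the lowest control. This is a log2 fold change of -3.85 ± 0.43, or a 14.4-fold lower level, with an adjusted p of 0.00135. Gbx2 gave 15, 13 and 19.4 CPM in induced pools and 64.8, 40 and 60 CPM in controls, from 458 to 2539 counts, the best covered of the 7. These groups were apart as well, with a log2 fold change of -1.76 ± 0.19 (adjusted p = 0.00124).

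Pax2 gave 0.474, 0.482 and 0.683 CPM in Oct4 E7.5 induced pools and 3.4, 1.57 and 2.88 CPM in their controls. No induced pool came within reach of the lowest control, control 2. Pax2 changed by -2.23 ± 0.33 on the log2 scale (adjusted p = 0.0048). Dmbx1, Gbx2 and Pax2 were each called in all 6 fits that left out 1 pool.

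Neither engrailed gene passed the test. En1 gave 1.25, 1.36 and 1.53 CPM in Oct4 E7.5 induced pools and 0.986, 0.555 and 0.638 CPM in their controls, so that all induced pools were above all controls. Its log2 fold change of 0.97 ± 0.27 did not pass (adjusted p = 0.0758), and 1 model over all libraries gave the same value with an adjusted p of 0.04. En2 gave 0.948, 0.936 and 0.965 CPM in induced pools and 0.748, 1.03 and 0.567 CPM in controls, with overlap (0.31 ± 0.28, adjusted p = 0.676). Pax5 and Egr2 were too low to be tested. Pax5 had no count in the 3 induced pools and 5 counts over the 3 controls, too few to show a difference. Egr2 averaged 0.237 ± 0.0647 CPM in induced pools and 0.26 ± 0.217 CPM in controls (SD, n = 3 each).

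With Nanog at E7.5, 3 members were tested and 2 were called, both lower, where 7.78% of all genes tested were called (4.82% lower). The median of the 3 on the log2 scale was -2.42, beside 0.00 for all genes tested. Dmbx1 gave 0.275, 0.808 and 0.144 CPM (1 to 21 counts) in induced pools and 3.79 and 4.1 CPM in controls, a log2 fold change of -2.89 ± 0.54 (adjusted p = 0.0146). Pax2 gave 0.367, 0.615 and 0.431 CPM in induced pools and 3.03 and 2.23 CPM in controls, a log2 fold change of -2.31 ± 0.48 (adjusted p = 0.0208). Neither gene showed any overlap between groups. With only 2 control pools, each call was lost when 1 was left out: without control 2 the adjusted p was 0.108 for Dmbx1 and 0.246 for Pax2, and without control 3 it was 0.132 for both. Besides the short gene models, mitochondrial genes took 5.27 to 8.26% of the counts in these induced pools and 3.3 to 3.63% in the controls, and the part of library preparation cannot be told apart from that of Nanog.

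Gbx2 gave 5.87, 12.7 and 3.09 CPM in Nanog E7.5 induced pools and 39.5 and 46.9 CPM in their controls. The groups were widely apart, but the induced pools differed among themselves (coefficient of variation 68.7%). The log2 fold change of -2.42 ± 0.60 was not called (adjusted p = 0.112), whereas it was called without induced pool 3 (-3.19, adjusted p = 0.00323), by DESeq2 (-2.51, adjusted p = 0.00975) and in 1 model over all libraries (-2.35, adjusted p = 0.000116). En1, En2, Pax5 and Egr2 were too low to be tested, at 0.524 ± 0.107, 0.646 ± 0.156, 0.0128 ± 0.0222 and 0.268 ± 0.121 CPM in induced pools (SD, n = 3) and 0.765 ± 0.42, 0.689 ± 0.312, 0 and 0.176 ± 0.248 CPM in controls (n = 2). These 4 genes overlapped between the groups. The depth of the controls, 6.59 and 8.54 M counts, puts a limit of 0.351 to 0.455 CPM on an observed 0.

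Hindbrain genes called at E7.5 were mostly lower. With Oct4, 11 of 19 tested hindbrain genes were lower and 1 higher (median -0.89), and with Nanog 6 of 19 were lower (median -0.77). The lower calls that held in every fit without 1 pool were 7 with Oct4 and 2 with Nanog. Among those lost with Oct4 were Hoxb2 without induced pool 1 (0.0922), and Meis3 (0.0805) and Nab2 (0.191) without control 3. Among those lost with Nanog were Hoxb3 without control 3 (0.14), and Meis2 without control 2 (0.0988). Isthmic genes were called in both directions at E7.5. With Oct4, 7 of 21 tested were higher and 5 lower (median on the log2 scale 0.28, beside 0.02 for all genes tested), of which 2 and 2 held in every fit without 1 pool. With Nanog, 5 of 18 tested were higher and 1 lower (median 0.39, beside 0.00), of which 1 and 1 held. Sp5 (1.01 ± 0.12, adjusted p = 0.00199) and Spry2 (0.62 ± 0.09, 0.0049) rose with Oct4 in every such fit, while Spry4 (0.0527), Dusp6 (0.106), Otx1 (0.156) and Otx2 (0.132) were lost without control 3, Tle4 without induced pool 3 (0.125), Fgf17 (0.163) and Irx3 (0.0511) without control 1 and Lmx1a without control 3 (0.0537). With Nanog, Spry2 was lost without control 3 (0.098), and Spry4 (0.284), Dusp6 (0.265) and Irx2 (0.0872) without control 2. Lmx1b, needed for Wnt1 and Fgf8 at the isthmus, fell with Oct4 (-1.56 ± 0.18, adjusted p = 0.00162) and with Nanog (-2.24 ± 0.28, adjusted p = 0.00262), each in every fit without 1 pool. Hes3 averaged 0.0561 ± 0.0383 CPM in Oct4 E7.5 induced pools and 7.03 ± 2.51 CPM in their controls (-6.76 ± 0.47, adjusted p = 0.000226), and 0.397 ± 0.688 CPM in Nanog E7.5 induced pools and 5.51 ± 0.493 CPM in their controls (-3.19 ± 1.04, adjusted p = 0.145). Wnt1 itself was at or near 0 in all E7.5 groups.

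Otx2, a gene of the epiblast as well as of the anterior brain, was higher at E7.5 with Oct4 (54.4 ± 14.2 CPM in induced pools and 32.4 ± 5.39 CPM in controls, 0.79 ± 0.17, adjusted p = 0.03; 0.132 without control 3) and with Nanog (102 ± 12.9 CPM in induced pools and 50.4 ± 2.81 CPM in controls, 1.07 ± 0.13, adjusted p = 0.00215). Of 8 forebrain genes tested with Oct4, 4 were lower and 0 higher, and none of these calls held in every fit without 1 pool. They were Six3 (-1.30 ± 0.24, adjusted p = 0.0143; 0.0711 without control 1), Hesx1 (-1.16 ± 0.22, 0.017; 0.0558 without induced pool 3), Lhx2 (-0.95 ± 0.20, 0.0254; 0.0855 without control 1) and Lhx5 (-1.97 ± 0.42, 0.0254; 0.109 without control 1). With Nanog none of 5 tested forebrain genes was called by edgeR or by DESeq2, with 3 at an unadjusted p under 0.05. The summed level of 5 primed epiblast genes, Otx2 among them, was 1366 to 2043 CPM in Oct4 E7.5 induced pools and 670 to 802 CPM in their controls, and 1818 to 2094 CPM in Nanog E7.5 induced pools and 772 to 774 CPM in their controls. All 5 rose with Oct4 and 4 with Nanog, among them Fgf5 (3.07 ± 0.36, adjusted p = 0.0029, with Oct4 and 4.04 ± 0.17, adjusted p = 1.25e-05, with Nanog). Of these calls 3 with Oct4 and 3 with Nanog held in every fit without 1 pool: besides Otx2 with Oct4, Tdgf1 was lost with Oct4 without induced pool 1 (0.0864) and with Nanog without control 3 (0.132). Visceral endoderm genes (5) summed to 696 to 820 CPM in Nanog E7.5 induced pools and 1204 to 1247 CPM in their controls, and 1381 to 1723 CPM in Oct4 E7.5 induced pools and 1515 to 1870 CPM in their controls. With Nanog 4 of the 5 were called lower, and each was lost when 1 control was left out, Apoa1 without control 2 (0.112) and Ttr (0.128), Hnf4a (0.098) and Amn (0.267) without control 3. With Oct4 0 were called by edgeR or by DESeq2, and 0 had an unadjusted p under 0.05. The intermediate mesoderm list summed to 63.8 to 121 CPM in Oct4 E7.5 induced pools and 30.8 to 37.7 CPM in their controls. The list had 6 genes tested with each transgene. Of them, 2 were higher and 1 lower with Oct4 (median log2 fold change -0.09). With Nanog the list had 3 higher and 1 lower, Osr1 (-2.55 ± 0.52, adjusted p = 0.0196), and a median of 0.82. Its gene Lhx1 rose with both (2.52 ± 0.29, adjusted p = 0.00292, with Oct4, and 2.59 ± 0.39, adjusted p = 0.0337, with Nanog; 0.25 for Nanog without control 2). Primitive blood genes summed to 6.61 to 12.3 CPM in Oct4 E7.5 induced pools and 76.3 to 131 CPM in their controls, and to 8 to 16.8 CPM in Nanog E7.5 induced pools and 64.6 to 99.3 CPM in their controls. The part of these shifts in the levels of the members was not tested.

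At E9.5 the change of 4 of the 7 members differed between the Oct4 and Nanog inductions, 1 higher and 3 lower, where 13.5% of all genes tested differed (5.57% higher and 7.92% lower). Egr2 differed by 4.06 ± 0.58 on the log2 scale (Oct4 change minus Nanog change, adjusted p = 0.000101), and Pax5, which fell with Oct4 and rose with Nanog, by -2.46 ± 0.40 (adjusted p = 0.000388). En2 differed by -1.35 ± 0.22 (adjusted p = 0.000567) and Dmbx1, lower with both, by -1.36 ± 0.28 (adjusted p = 0.00261). Each was called in all 11 fits without 1 pool, and Dmbx1 was not called in 1 model over all libraries (0.139). Gbx2 (0.46 ± 0.17, 95% interval 0.13 to 0.79, adjusted p = 0.0722), En1 (-0.80 ± 0.37, interval -1.53 to -0.08, adjusted p = 0.16) and Pax2 (0.23 ± 0.25, interval -0.26 to 0.72, adjusted p = 0.595) were not called. Gbx2 was called without Oct4 E9.5 control 2 (0.0487) and En1 without Oct4 E9.5 induced pool 4 (0.0322).

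No member was shown to differ between the transgenes at E7.5. Of 5 members tested, 0 were called by edgeR or by DESeq2 and 1 (En1) had an unadjusted p under 0.05, where 0.204% of all genes tested were called (0.138% higher and 0.0659% lower). The intervals were wide: -2.39 to 0.44 for Dmbx1, -0.52 to 1.73 for Gbx2 and -1.0 to 1.15 for Pax2, so these data do not show that the transgenes act alike. Pou5f1 averaged 525 ± 60.9 CPM in Nanog E7.5 induced pools and 553 ± 67.4 CPM in Oct4 E7.5 induced pools, so Oct4 RNA was high in both. Its part in the changes of the members was not tested.

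Between the stages, the change of Gbx2 and Pax2 differed in both lines. Of 7 members, 4 differed between Oct4 at E9.5 and Oct4 at E7.5 (3 higher and 1 lower), where 6.70% of all genes tested did (4.85% higher and 1.85% lower). Gbx2 differed by 2.65 ± 0.25 (adjusted p = 2.7e-05), Pax2 by 2.72 ± 0.36 (adjusted p = 0.000252), Egr2 by 3.41 ± 0.72 (adjusted p = 0.00918) and En2 by -1.49 ± 0.32 (adjusted p = 0.0101), all called in each of 12 fits without 1 pool. En1 (-1.46 ± 0.44, adjusted p = 0.0617) and Dmbx1 (1.69 ± 0.52, adjusted p = 0.0745) were not called, whereas DESeq2 called both (0.0314 for En1 and 0.0264 for Dmbx1), and Pax5 was not called (1.78 ± 0.88, adjusted p = 0.372). For Nanog, 3 of 6 members differed, all higher, where 12.8% of all genes tested did (8.02% higher and 4.79% lower). Of those calls 62.6% were higher, and 79.9% with scaling by library totals alone. Pax2 differed by 2.54 ± 0.46 (adjusted p = 0.00349) and was called in each of 10 fits without 1 pool. Gbx2 (2.82 ± 0.64, adjusted p = 0.0299) and Dmbx1 (2.07 ± 0.50, adjusted p = 0.0166) were not: the adjusted p reached 0.124 for Gbx2 without Nanog E9.5 control 2 and 0.0776 for Dmbx1 without the same pool. Leaving out E9.5 control 3, or E7.5 control 2 or 3, also ended each of these calls, with adjusted p of 0.122, 0.0701 and 0.0918 for Gbx2 and 0.0596, 0.0508 and 0.076 for Dmbx1. For Gbx2 so did leaving out Nanog E7.5 induced pool 1 (0.0665) or Nanog E9.5 induced pool 1 (0.0624), 2 (0.0794) or 3 (0.0588). With no filter on low counts Gbx2 was not called either (0.0926).

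**Figure D4:**
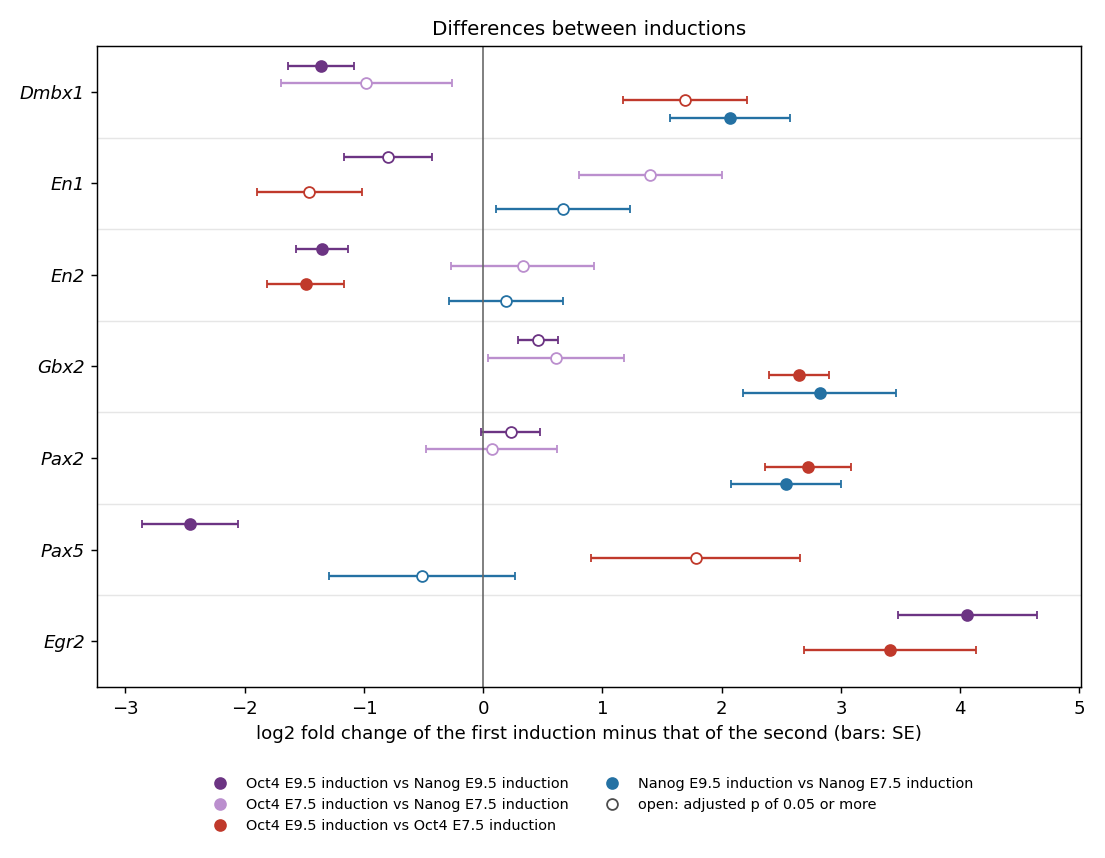
Differences between inductions in log2 fold change (first induction minus second, bars are standard errors) for the 7 genes. Filled points were called at an adjusted p under 0.05. At E9.5 Egr2 lies at 4.06 and Pax5 at -2.46 in the contrast of Oct4 with Nanog, and Gbx2 and Pax2 lie right of 0 in both contrasts of E9.5 with E7.5.

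Seen over the 8 groups, the order of mean levels differed from gene to gene. Egr2 was highest in Oct4 E9.5 induced pools (11.3 ± 4.92 CPM), and the next groups, Nanog E9.5 controls (1.18 ± 0.14 CPM), Oct4 E9.5 controls (1.03 ± 0.224 CPM) and Nanog E9.5 induced pools (0.769 ± 0.164 CPM), overlapped from each to the next. Pax5 was highest in Nanog E9.5 induced pools (5.45 ± 1.36 CPM), which overlapped Oct4 E9.5 controls (4.61 ± 1 CPM), followed by Nanog E9.5 controls (2.51 ± 0.327 CPM) and Oct4 E9.5 induced pools (1.68 ± 0.679 CPM), which also overlapped. En2 ran from Oct4 E9.5 controls (19.7 ± 4.29 CPM) over Nanog E9.5 induced pools (17.4 ± 1.9 CPM) and Nanog E9.5 controls (15.2 ± 2.32 CPM), all overlapping, to Oct4 E9.5 induced pools (8.74 ± 0.693 CPM), which did not overlap them. Dmbx1 was ordered without overlap at the top, with Oct4 E9.5 controls at 12.2 ± 0.453 CPM, Nanog E9.5 controls at 10.1 ± 0.856 CPM and Nanog E9.5 induced pools at 6.1 ± 0.0992 CPM, and Oct4 E9.5 induced pools (2.64 ± 1.05 CPM) ranked below both E7.5 control groups (3.95 ± 0.217 CPM in the Nanog line and 3.93 ± 1.68 CPM in the Oct4 line), both of which overlapped them. The 4 E9.5 groups of En1 overlapped from each to the next, between 7.01 ± 1.33 CPM in Nanog E9.5 induced pools and 4.65 ± 2.22 CPM in Oct4 E9.5 induced pools. Pax2 was highest in Oct4 E9.5 induced pools (8.47 ± 0.102 CPM), above all others, and Gbx2 in Oct4 E7.5 controls (54.9 ± 13.1 CPM), which overlapped Nanog E7.5 controls (43.2 ± 5.23 CPM).

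As a description over the 22 libraries, which share stage, depth and line, Pearson's r of log2(CPM + 1) between members was highest for En2 with Pax5 (0.97) and En2 with En1 (0.96), and Gbx2 was nearly unrelated to En1 (-0.20), En2 (-0.24) and Pax5 (-0.24). Among 12783 genes whose mean over the libraries reached 1 CPM, the profiles most like that of Gbx2 were Hoxb1 (0.963), Wnt3a (0.945) and Car3 (0.940), and those most like that of Dmbx1 were Six3 (0.929), Shh (0.924) and Fabp7 (0.924). Among the profiles most like that of En2 were Dbx1 (0.994) and BC024139 (0.993). Pax5 was closest to En2 (0.973), Dbx1 (0.969) and Tox2 (0.969), and En1 to Dpysl3 (0.969), Zfp536 (0.965) and Tubb2b (0.965). Pax2 was closest to Tbx1 (0.986), Hoxa3 (0.986, 1 of the gene models of that symbol) and Gpr153 (0.985). Egr2 was closest to Tmem229b (0.932), Ppp1r1b (0.930) and Pak1 (0.894).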

How the data were processed

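RNA of 22 pools of whole embryos was sequenced; groups follow the labels. The deposited table holds expected counts per gene, estimated by RSEM 1.17 on NCBIM37 with cutadapt, Picard and limma also named, per the submitters' processing notes. RSEM divides reads shared by several genes, so copies are uncertain. Strand use is not given in the sources used here. Of 37680 gene IDs, 37309 matched a symbol in the GENCODE annotation of this build.

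The members and lists were chosen with earlier results of these data known. Expected counts were rounded to whole numbers and tested with edgeR 4.0.16 in R 4.3.3 (glmQLFit with robust dispersion and glmQLFTest, two-sided, after TMM scaling and filterByExpr), adjusted by Benjamini-Hochberg over all genes tested and called under 0.05. Each induction was fitted on its own groups; differences between inductions were interaction contrasts over 4 groups. Every adjusted p comes from this test unless another is named. SE and 95% intervals belong to log2 fold changes, n counts pools, and p-values measure the spread between pools. SE is the size of the log2 fold change divided by the square root of the test's F. The 95% intervals are nominal, with a normal multiple of SE on either side. They leave out the few degrees of freedom, so they are too narrow. Pax5 between the Oct4 stages had an interval of 0.05 to 3.51 at an unadjusted edgeR p of 0.0929. CPM are counts divided by the library total in M, without TMM.

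Library totals were 4.72 to 42.3 M counts. Floors of 3 counts cover counting error only. Within groups, 20 library pairs differed by chi-square values of 1.6 to 67.1 per degree of freedom over genes with at least 20 summed counts, so none was a copy. Steps were tested on simulated data in which only better covered genes were changed, at a fixed dispersion. That test does not cover genes as low as most members at E7.5. Alternatives were RLE scaling, no filter on low counts, DESeq2 1.42.0, 1 model over all libraries, each library left out in turn, the replicate block and, added after seeing the data, library totals without TMM. Named genes were all members, Pou5f1 and Nanog, per list up to 4 called genes of lowest p in an induction (all where 5 or fewer were called in a direction), genes a member's result turns on, and the 3 most similar profiles per member. Known Egr2 targets, Wnt1, Fgf8 and Otx2 values were named after they were seen. Hoxa3, Tfap2a and Pou3f1 matched no single gene ID and left their lists. A few genes that this rule names are not reported here.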

Additional observations from a re-analysis of the deposited data

Results flagged for a closer look

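The results below were singled out because the effect of induction on a member differed between groups, by a test of the difference itself (an interaction contrast over 4 groups in edgeR, adjusted over all genes tested). Values are differences between log2 fold changes.

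Between Oct4 and Nanog at E9.5, Egr2 differed by 4.06, Pax5 by -2.46, Dmbx1 by -1.36 and En2 by -1.35. In CPM, Egr2 averaged 11.3 ± 4.92 in Oct4 E9.5 induced pools and 1.03 ± 0.224 in their controls (SD, n = 3 each), and 0.769 ± 0.164 in Nanog E9.5 induced pools (n = 3) and 1.18 ± 0.14 in their controls (n = 2). Pax5 averaged 1.68 ± 0.679 in Oct4 E9.5 induced pools and 4.61 ± 1 in their controls, and 5.45 ± 1.36 in Nanog E9.5 induced pools and 2.51 ± 0.327 in their controls. The controls of the lines themselves stood apart for Pax5, with 3.76 to 5.71 CPM in the Oct4 line and 2.28 to 2.75 CPM in the Nanog line.

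Between Oct4 at E9.5 and Oct4 at E7.5, Egr2 differed by 3.41, Pax2 by 2.72, Gbx2 by 2.65 and En2 by -1.49. Between Nanog at E9.5 and Nanog at E7.5, Gbx2 differed by 2.82, Pax2 by 2.54 and Dmbx1 by 2.07. The Egr2 difference between the Oct4 stages rests on 24 counts over the induced and 26 over the control pools at E7.5, against 284 over the induced and 33 over the control pools at E9.5. Doxycycline schedule and stage changed together, and the Nanog E7.5 induced libraries differed from their controls in the level of short gene models, so stage, schedule and library preparation cannot be told apart in these differences.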

How the results depend on the processing

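Every called change of a member in the 4 inductions kept its direction under each alternative run (RLE scaling, no filter, DESeq2, 1 model over all libraries, library totals alone, the block and each pool left out). Of 233 values of members in the inductions, 17 lost the call and 4 gained it. Counts of members called stayed within 1.5 times with settings other than leaving out a pool, except that 1 model over all libraries called 1 member in place of 3 in Nanog E9.5. Numbers of genes called moved further. With 1 model over all libraries they were 1638 in place of 991 (Oct4 E7.5), 2737 in place of 1099 (Nanog E7.5), 312 in place of 1297 (Oct4 E9.5), 1958 in place of 3772 (Nanog E9.5), 177 in place of 34 (Oct4 against Nanog at E7.5) and 229 in place of 1970 (Oct4 against Nanog at E9.5). With DESeq2 they were 715 (Oct4 E9.5), 2414 (Nanog E9.5) and 244 (Oct4 against Nanog at E7.5), and with no filter 1721 (Nanog E7.5) and 56 (Oct4 against Nanog at E7.5). The cause was not tested.

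Leaving out 1 pool at a time gave ranges of members called of 3 to 3 (Oct4 E7.5), 0 to 3 (Nanog E7.5), 4 to 5 (Oct4 E9.5), 1 to 3 (Nanog E9.5), 7 to 7 and 5 to 6 (stage in the Oct4 and the Nanog line), 0 to 0 and 4 to 5 (Oct4 against Nanog at E7.5 and at E9.5), and 4 to 5 and 1 to 3 (E9.5 against E7.5 with Oct4 and with Nanog). Genes called ranged, in the same order, over 438 to 1101, 161 to 1383, 625 to 1292, 1482 to 3488, 10706 to 11748, 8253 to 8752, 16 to 130, 826 to 2173, 735 to 1361 and 807 to 2376. These fits hold fewer samples. Signs turned only for differences between inductions that were not called. Between Oct4 and Nanog at E7.5 the values ranged over -0.19 to 0.77 for En2, -1.22 to 0.23 for Dmbx1 and -0.18 to 0.44 for Pax2, and between Nanog at E9.5 and E7.5 over -0.31 to 0.64 for En2 and -0.81 to 1.07 for Pax5, for which DESeq2 gave 0.85.

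Replicate numbers shared by induced and control pools were also fitted as a block. It gave 3 members and 1287 genes in Oct4 E7.5 and 2 members and 3359 genes in Nanog E9.5, where Gbx2 was no longer called (adjusted p = 0.0814). Deviations of same-numbered pools correlated at 0.13, 0.14 and 0.01 in Oct4 E7.5, where each pool correlated best with its own number, and at -0.09 and 0.03 in Nanog E9.5. Deviations from a group mean offset each other within the group, so these correlations cannot decide whether the numbers are pairs. The main fits did not use the numbers as pairs.

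Depth limits the low members. An observed 0 allows up to 0.455 CPM in the shallowest E7.5 pool, Nanog E7.5 control 2, for counting error only, so absence of Pax5 or Egr2 at E7.5 cannot be stated.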
